A study of Mus musculus with 6 samples.

Results

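The genes described here are 10 clotting and anticoagulant genes of endothelial cells: Vwf, F8 and F3 on the procoagulant side, and Thbd, Procr, Tfpi, Tfpi2, Pros1, Serpind1 and Entpd1 on the anticoagulant side. They were taken by name, and all 10 are among the 52636 genes of the count table and passed the filter on low counts that left 13901 genes to test. The cells were cultured from mouse brain, treated with 4-hydroxytamoxifen (4-OHT) in both groups to induce deletion, and sorted as living CD45-negative, CD31-positive and VE-cadherin-positive cells. The 3 control libraries came from wild-type cells and the 3 knockout libraries from cells with Erg and Fli1 deleted, a pair of ETS transcription factor genes of endothelium. The labels name neither the recombinase and its driver nor the age of the mice. They do not say whether the libraries of a group came from separate animals or cultures. By Xist and the Y-linked Ddx3y each group held both male and female libraries, hence more than 1 animal, and how much of the spread behind each p-value is technical is not known.

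The inner surface of a vessel holds clotting in check while storing what is needed to start it. Tissue factor, the product of F3, binds factor VII and starts the cascade, and tissue factor pathway inhibitor (Tfpi) shuts that step down. Thrombomodulin (Thbd) and the endothelial protein C receptor (Procr) together turn thrombin into an activator of protein C, which with protein S (Pros1) as cofactor destroys factors V and VIII. Endothelial cells also store von Willebrand factor (Vwf), which tethers platelets and carries factor VIII (F8), in Weibel-Palade bodies, and they carry on their surface the enzyme CD39 (Entpd1), which removes the platelet agonists ATP and ADP.

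Of the 10 genes, 8 have entries in the RefSeq promoter table (GRCm38.p6), which gives 250 bases before and 50 after each start; Vwf and Thbd have none. Windows of Tfpi, Pros1 and Procr are shown 5′ to 3′. In them GGAA on either strand, the core of the ETS binding motif, is in capitals. Tfpi and Pros1 are the abundant anticoagulant genes that rose in the knockout, and Procr was lower in the knockouts than in controls 1 and 3. The window of F3 is shown because AP-1 sites are known in the F3 promoter, with TGAGTCA on either strand in capitals.
Tfpi, chr2:84476710-84477009, minus strand: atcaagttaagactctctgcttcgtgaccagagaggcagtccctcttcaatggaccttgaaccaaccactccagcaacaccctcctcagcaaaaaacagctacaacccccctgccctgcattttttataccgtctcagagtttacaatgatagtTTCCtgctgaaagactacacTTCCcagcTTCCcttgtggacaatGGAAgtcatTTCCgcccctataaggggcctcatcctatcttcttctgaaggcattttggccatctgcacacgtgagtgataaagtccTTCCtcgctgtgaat
Pros1, chr16:62854057-62854356, plus strand: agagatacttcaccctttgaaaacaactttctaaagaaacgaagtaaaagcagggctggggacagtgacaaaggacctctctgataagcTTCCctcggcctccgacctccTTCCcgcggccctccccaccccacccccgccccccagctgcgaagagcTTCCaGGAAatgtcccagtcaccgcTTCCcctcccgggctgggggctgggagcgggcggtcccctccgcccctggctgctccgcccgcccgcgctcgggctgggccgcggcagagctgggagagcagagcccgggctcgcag
Procr, chr2:155750967-155751266, plus strand: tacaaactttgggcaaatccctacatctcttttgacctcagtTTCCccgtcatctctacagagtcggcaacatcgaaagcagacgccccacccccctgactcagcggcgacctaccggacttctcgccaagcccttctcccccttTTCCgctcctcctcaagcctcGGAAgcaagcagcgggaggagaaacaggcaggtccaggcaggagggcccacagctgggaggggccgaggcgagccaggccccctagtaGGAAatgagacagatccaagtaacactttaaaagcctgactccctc
F3, chr3:121723287-121723586, plus strand: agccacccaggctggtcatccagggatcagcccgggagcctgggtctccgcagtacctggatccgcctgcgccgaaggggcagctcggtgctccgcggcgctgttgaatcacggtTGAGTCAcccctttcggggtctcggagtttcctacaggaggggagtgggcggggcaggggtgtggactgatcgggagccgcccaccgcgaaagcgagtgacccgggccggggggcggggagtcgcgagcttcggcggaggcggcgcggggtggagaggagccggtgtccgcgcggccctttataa

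GGAA occurred on either strand in 12 of 12 windows of the 8 genes, but also in 95.98% of all 32851 windows of this length. Of the windows shown, that of Tfpi held 6, that of Pros1 5, that of Procr 4 and that of F3 1, against a median of 3.0 over all windows. The other window of Tfpi, not shown, held 4, and the windows not shown held 2 to 7. The longer form CGGAA, whose matches are a subset of those of GGAA, was in 6 of 12 windows of these genes and in 29.9% of all windows. TGAGTCA on either strand was in 2 of the 12 windows, those of F3 and Procr, and in 5.20% of all windows. GATAA was in 5 of the 12 and in 25.4% of all. A pair of Tfpi2 windows overlap and share both their CGGAA and their GATAA, so that each of these matches is counted 2 times. These are matches of letters only.

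The libraries held 17274639 to 19410458 counts, and each level is in CPM (depth-scaled counts, on TMM-adjusted library sizes) with the SD over n = 3 libraries a group. Erg had 656, 223 and 609.6 CPM in controls 1 to 3 and 70.2, 88.3 and 109 CPM in the knockouts, so that every knockout was lower. Fli1 had 64.2 to 92.1 CPM in controls and 57.0 to 68.5 CPM in knockouts, so its groups overlapped. The deleted stretch is not given in the labels, and a count over the whole gene does not show whether part of it is lost. Control 2 stood apart from the other controls. Its 11 fibroblast markers summed to 13230 CPM, against 422 and 1159 CPM for controls 1 and 3 and 1645 to 2868 CPM in knockouts, and its 11 mural cell (pericyte and smooth muscle) markers to 4301 CPM, against 477 and 592 CPM and 782 to 1576 CPM. Dcn made up most of the fibroblast sum in the knockouts, and without it the other 10 markers summed to 418, 12910 and 1152 CPM in controls 1 to 3 and 302.5 to 758 CPM in knockouts. Its 12 endothelial markers summed to 7324 CPM, against 17250 and 17410 CPM in the other controls and 3966 to 4885 CPM in knockouts. The summed level of 6 astrocyte markers was 17.2 CPM in control 2 and 8.08 to 12.5 CPM in the rest. S100b gave 9.69 CPM of it in control 2, against 0.158 to 3.44 CPM in the rest. Aldh1l1 was lowest in control 2, at 5.17 CPM against 5.79 to 9.81 CPM. The other astrocyte markers had at most 1.95 CPM in any library. By the same genes of sex, controls 1 and 3 and knockout 1 were male and the other 3 libraries female, so the only female control is control 2. The part of these differences in the results below was not tested beyond the values given with each.

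Of the 10 genes, 5 changed in the knockout: Tfpi, Pros1 and Serpind1 rose, and Vwf and Tfpi2 fell (edgeR quasi-likelihood test, Benjamini-Hochberg adjusted p under 0.05 over all genes, which is what "called" means here). The call of Serpind1 is the least secure, since it passed the filter through the knockouts alone and lost its call without knockout 1, without knockout 2 and with the replicate number as a block. Over all genes tested, 24.7% were called, 13.1% higher and 11.7% lower. The same 5 genes had groups that did not overlap in CPM, as did 46.3% of all genes tested. Without control 2 all 10 were called, 5 higher and 5 lower, in a comparison in which 50.3% of genes were called, 25.5% higher and 24.8% lower. The 5 genes that gained a call, F8, F3, Thbd, Procr and Entpd1, were those in which control 2 lay within or beyond the range of the knockouts. The median log2 fold change of the 10 genes was -0.40 with all libraries and 0.05 without control 2, beside 0.003 and -0.0037 over all genes tested.

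**Figure D1:**
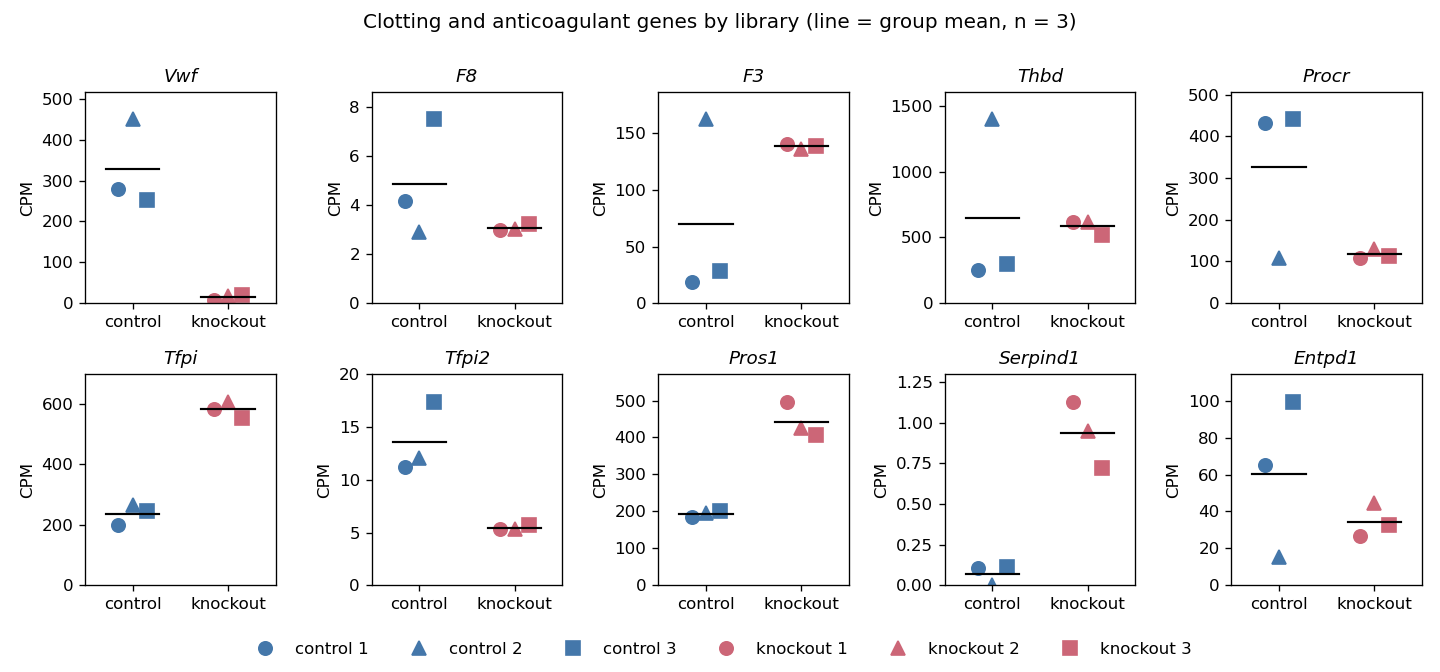
CPM of each gene (y axis, from 0) in the 3 control (blue) and 3 knockout (red) libraries; marker shape gives the replicate number and the line the group mean. Vwf, Tfpi, Tfpi2, Pros1 and Serpind1 separate the groups, whereas in F3, Thbd, Procr, Entpd1 and F8 control 2 (blue triangle) lies within or beyond the knockouts.

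Vwf, the platelet-tethering protein of Weibel-Palade bodies, had the largest fall of the set. Vwf (ENSMUSG00000001930, GRCm38 chromosome 6, 125546774 to 125686679, plus strand) stood at 279.5, 449.8 and 253 CPM in controls 1 to 3 and at 7.50, 17.5 and 20.6 CPM in knockouts 1 to 3. Every control lay far above every knockout, and control 2, with the lowest sum of endothelial markers among controls, was here the highest. The means were 327 ± 107 CPM and 15.2 ± 6.82 CPM, and the knockout mean was 4.64% of the control mean (log2 fold change -4.43, SE 0.47, adjusted p = 0.00346 by edgeR). Without control 2 the log2 fold change was -4.17 (adjusted p = 7.38e-05 by edgeR). Vwf is also made by megakaryocytes, whose 8 markers summed to 417 to 458 CPM in controls and 127 to 156 CPM in knockouts, nearly all from Itgb3, which endothelium expresses too. Without Itgb3 the other 7 summed to 4.44 to 9.31 CPM in controls and 6.74 to 8.32 CPM in knockouts. Among them Pf4, platelet factor 4, rose from 0.305 ± 0.131 to 3.38 ± 0.484 CPM (log2 fold change 3.44, adjusted p = 0.00325 by edgeR), opposite to Vwf. In bulk RNA, fewer Vwf-expressing cells and less Vwf RNA per cell cannot be told apart.

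The genes whose profile over the 6 libraries was most like that of Vwf, among 10540 others with a mean of at least 5 CPM, were Ms4a6d, Ldb2, Igfbp3, Adgrg3 and Ccm2l. Likeness was the root mean square difference of log2 CPM after centring each gene, 0.48 for Ms4a6d and 0.58 for Ccm2l. Ldb2 encodes a LIM-domain binding cofactor and Igfbp3 a binding protein of insulin-like growth factors. Igfbp3 stood at 1015 to 1706 CPM in controls, with its highest value in control 2, and at 47.6 to 94.0 CPM in knockouts. Ldb2 stood at 42.8 to 57.9 CPM and 1.90 to 5.85 CPM.

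F8, the cofactor that Vwf carries in plasma, was scarce in every library. F8 (ENSMUSG00000031196, chromosome X, 75172715 to 75382615, minus strand) had 79, 53 and 137 counts in controls 1 to 3 and 58, 54 and 58 counts in the knockouts. Control 2 lay just below the knockouts and controls 1 and 3 above them. The log2 fold change was -0.66 (SE 0.36, 95% interval -1.56 to 0.24, adjusted p = 0.239 by edgeR), and without control 2 it was -0.95 (adjusted p = 0.0197 by edgeR). F8 is X-linked, and with a term for sex the log2 fold change was -0.43 (adjusted p = 0.481 by edgeR). The term also moved genes that are not X-linked, Procr from -1.48 to -0.92 and Entpd1 from -0.80 to -0.16.

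F3, tissue factor, was low in controls 1 and 3 alone. F3 (ENSMUSG00000028128, chromosome 3, 121723537 to 121735048, plus strand) stood at 18.7, 162 and 28.2 CPM in controls 1 to 3, against 141, 136 and 139 CPM in the knockouts. The knockouts were close together (SD 2.19 CPM), and control 2 stood above all of them. Fibroblasts and mural cells express F3 as well, and their summed markers, given above, were highest in control 2. The mural sum was lowest in controls 1 and 3, as F3 was, but Acta2 made up most of it in every library. Pdgfrb, Kcnj8, Tagln, Cnn1 and Notch3 were also lowest in these controls. Abcc9 was higher in them (1.05 and 3.23 CPM) than in any knockout (0.335 to 0.719 CPM), and Rgs5, Cspg4, Myh11 and Des overlapped. The fibroblast sum without Dcn was higher in control 3 than in any knockout. The cells were sorted for CD31 and VE-cadherin, and the part of other cells in the values of F3 was not tested. With all libraries the log2 fold change of 0.99 did not pass the test (SE 0.82, 95% interval -1.02 to 3.00, adjusted p = 0.417 by edgeR). Without control 2 the knockouts held 5.91 times the mean of the remaining controls (log2 fold change 2.53, SE 0.15, adjusted p = 2.61e-05 by edgeR).

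Thbd, thrombomodulin, showed the same arrangement of libraries and no call over all 6. Thbd (ENSMUSG00000074743, chromosome 2, 148404466 to 148408188, minus strand) stood at 248, 1396 and 299.5 CPM in controls 1 to 3, and at 617, 616.5 and 518 CPM in the knockouts. The knockouts lay between controls 1 and 3 below and control 2 above. The log2 fold change was -0.15 with all libraries (SE 0.69, 95% interval -1.84 to 1.54, adjusted p = 0.894 by edgeR) and turned to 1.06 without control 2 (SE 0.11, adjusted p = 2.59e-04 by edgeR). Its sign was also positive with limma voom, at 0.31, and with the replicate number as a block, at 0.34, with no call in either.

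Procr, which hands protein C to the thrombin-thrombomodulin complex, went the other way. Procr (ENSMUSG00000027611, chromosome 2, 155751117 to 155755471, plus strand) stood at 431, 107.5 and 441 CPM in controls 1 to 3, and at 109, 129 and 113 CPM in the knockouts. Control 2 was level with the knockouts, and the other controls stood far above. The log2 fold change of -1.48 did not pass with all libraries (SE 0.52, 95% interval -2.77 to -0.20 before adjustment, adjusted p = 0.0920 by edgeR), passed with DESeq2 (adjusted p = 0.00920), and was -1.93 without control 2 (adjusted p = 5.59e-06 by edgeR). The ratio of Thbd to Procr CPM was 0.574 and 0.679 in controls 1 and 3, 12.99 in control 2 and 4.57 to 5.68 in knockouts. The groups thus overlapped through control 2.

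Tfpi, the inhibitor of tissue factor and factor X, rose in the knockout with all libraries. Tfpi (ENSMUSG00000027082, chromosome 2, 84432855 to 84476775, minus strand) stood at 199.6, 267 and 245 CPM in controls 1 to 3 and at 584, 608 and 554 CPM in the knockouts. The groups did not overlap, and control 2 lay close to the other controls. The means were 237 ± 34.3 CPM and 582 ± 27.2 CPM (log2 fold change 1.29, SE 0.12, adjusted p = 0.00270 by edgeR), a 2.45-fold difference. Without control 2 the log2 fold change was 1.35.

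Tfpi2, another Kunitz-type inhibitor related to Tfpi that acts on plasmin and other proteases of the matrix, fell. Tfpi2 (ENSMUSG00000029664, chromosome 6, 3962595 to 3988919, minus strand) stood at 11.2, 12.1 and 17.4 CPM in controls and 5.34, 5.30 and 5.74 CPM in knockouts. Each knockout had less than any control (log2 fold change -1.31, SE 0.20, adjusted p = 0.00852 by edgeR). Tfpi and Tfpi2 thus changed in opposite directions, from levels that already differed. Per kilobase of exon, Tfpi had 43.4 CPM in controls against 7.76 CPM for Tfpi2, and 106.5 CPM against 3.13 CPM in knockouts.

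Pros1, protein S, rose by a like amount to Tfpi. Pros1 (ENSMUSG00000022912, chromosome 16, 62854307 to 62929346, plus strand) stood at 185, 196 and 201 CPM in controls and at 497, 426 and 405 CPM in knockouts. The 3 controls, control 2 included, were close together (SD 8.20 CPM), and every knockout stood above them. The log2 fold change was 1.19 (SE 0.10, adjusted p = 0.00194 by edgeR) and 1.17 without control 2.

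Serpind1, heparin cofactor II, a thrombin inhibitor made mainly by the liver and activated by dermatan sulfate, rose from the limit of detection. Serpind1 (ENSMUSG00000022766, chromosome 16, 17331371 to 17343575, plus strand) had 2, 0 and 2 counts in controls and 22, 17 and 13 counts in knockouts, 4 counts against 52. The ratio was 13.1 with a 95% exact counting interval of 4.81 to 49.7, which covers counting error only. The fitted log2 fold change was 3.58 (SE 0.63, adjusted p = 0.0133 by edgeR), and the call was lost without knockout 1 or knockout 2 (adjusted p = 0.0599 by edgeR and 0.0586) and with the replicate number as a block (0.0555). Serpind1 passed the filter through the knockouts alone, with 0 of 3 controls above its limit of 0.528 CPM, so a difference was needed for it to be tested at all.

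Entpd1, the surface enzyme CD39, was spread over the controls. Entpd1 (ENSMUSG00000048120, chromosome 19, 40612366 to 40741602, plus strand) stood at 65.4, 15.3 and 99.6 CPM in controls 1 to 3, and at 26.6, 44.4 and 32.6 CPM in the knockouts. Control 2 was the lowest of the 6 libraries, and controls 1 and 3 the highest. Microglia carry CD39 too, although the sort was for CD45-negative cells. Of 10 markers of macrophages and microglia, C1qa and C1qb were at 0 throughout and Ptprc, the gene of CD45, had at most 0.211 CPM. The sum was 4.64, 164 and 14.5 CPM in controls 1 to 3, of which Tmem119 gave 160.0 CPM in control 2, and without Tmem119 it was 2.85 to 4.17 CPM in controls and 2.06 to 3.01 CPM in knockouts. The log2 fold change was -0.80 (SE 0.64, 95% interval -2.38 to 0.78, adjusted p = 0.406 by edgeR), and -1.29 without control 2 (adjusted p = 0.00366 by edgeR).

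**Figure D2:**
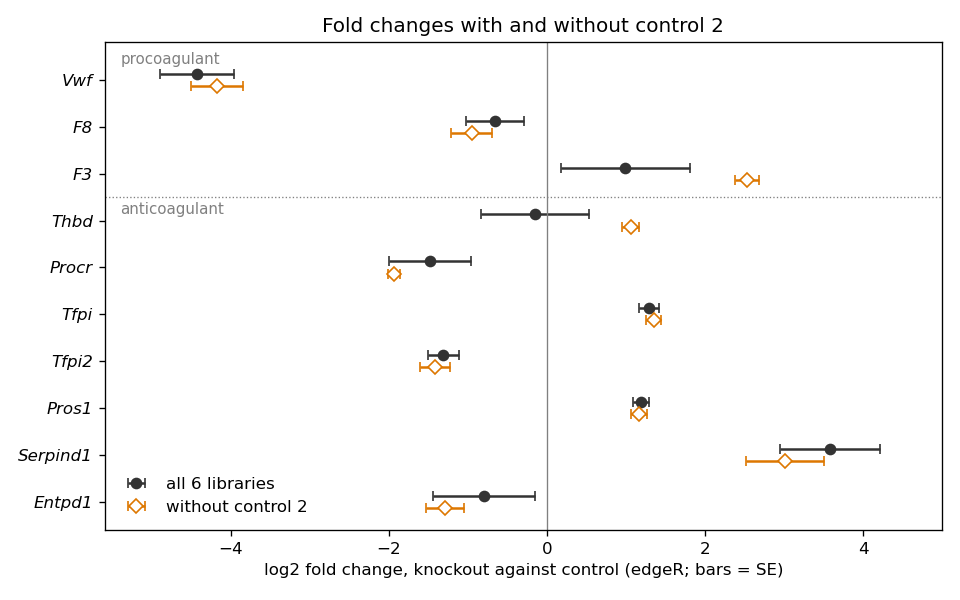
Log2 fold change of knockout against control (x axis; bars are the SE of the edgeR fit) for each gene, from all 6 libraries (filled circles) and without control 2 (open diamonds). Vwf, Tfpi, Tfpi2 and Pros1 hold their place, F3 moves from 0.99 to 2.53, and Thbd crosses zero from -0.15 to 1.06.

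Control 2 differed from the mean of controls 1 and 3 by 2.82 (log2 CPM) for F3, 2.36 for Thbd, -2.02 for Procr, -2.40 for Entpd1 and -0.93 for F8. For Vwf, Tfpi, Tfpi2 and Pros1, which were called with all libraries, the same difference was 0.76, 0.27, -0.21 and 0.02. For Serpind1, also called, it was -0.98, from 2, 0 and 2 counts. Values within each sex divide the libraries in nearly the same way, since the male libraries leave out control 2 and the female ones set it against knockouts 2 and 3. The log2 difference of knockout from control was 2.61 in male and -0.24 in female libraries for F3, 1.18 and -1.31 for Thbd, -2.01 and 0.17 for Procr, and -1.60 and 1.31 for Entpd1. It was -5.13 and -4.56 for Vwf, 1.40 and 1.12 for Tfpi, 1.37 and 1.09 for Pros1, and -1.37 and -1.12 for Tfpi2. Each of these values rests on 1 library in 1 of its groups, and the sex of the controls and the standing apart of control 2 cannot be told apart. With a term for sex 5 genes were called, 3 higher and 2 lower, the 5 called without it.

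The balance between both sides was described per library as the mean log2 CPM of the 3 procoagulant genes minus that of the 7 anticoagulant genes, with no test. It was -0.78, 0.60 and -0.64 in controls 1 to 3 and -2.06, -1.75 and -1.44 in the knockouts, lower in each knockout than in any control. The group means differed by -1.47, and by -1.04 without control 2. Serpind1, with 4 counts in the controls, entered as a full member although it passed the filter through the knockouts alone. Without Serpind1 the means differed by -1.10. The lower balance of the knockouts was carried by Vwf. With Vwf left out the means differed by 0.21, and by 0.67 without control 2. The groups overlapped, the knockouts at -1.67 to -1.42, controls 1 and 3 at -2.43 and -2.01, and control 2 at -0.85. The ratio of F3 to Tfpi CPM, the initiator against its inhibitor, was 0.0935 and 0.115 in controls 1 and 3, 0.609 in control 2 and 0.224 to 0.251 in knockouts. The knockouts therefore lay above controls 1 and 3 in this ratio although Tfpi itself was higher in them, and below control 2.

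**Figure D3:**
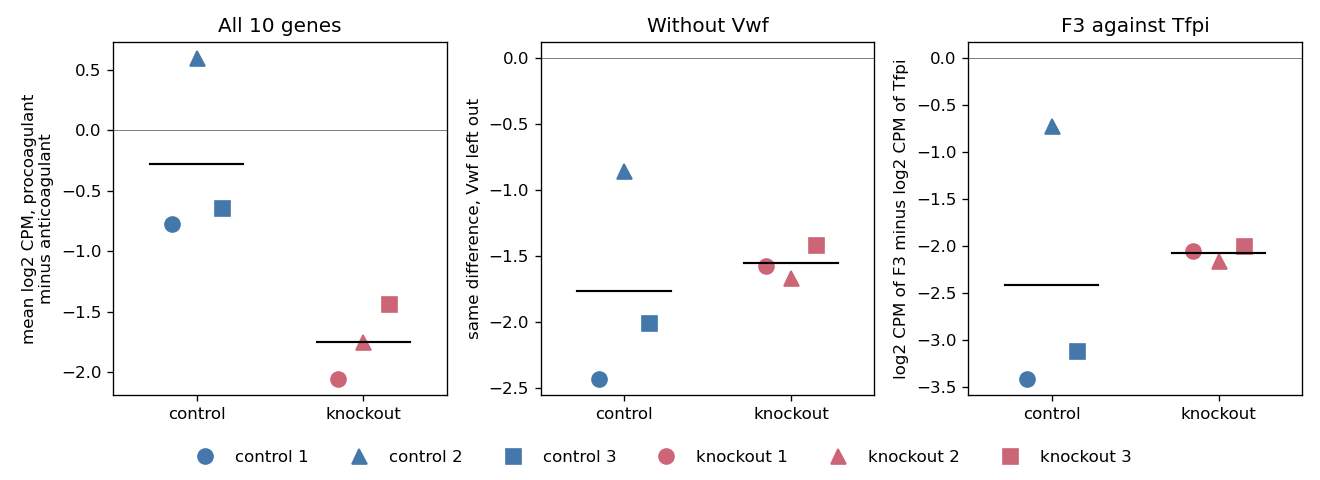
Per library, the mean log2 CPM of procoagulant minus anticoagulant genes (left), the same without Vwf (middle), and log2 CPM of F3 minus that of Tfpi (right), with lines at group means. The groups separate on the left, where the knockouts lie at -2.06 to -1.44, and overlap in the other panels through control 2.

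Levels per kilobase of exon allow genes to be set side by side. In the controls the order of mean levels was Thbd (174 CPM per kilobase), Procr (161), Pros1 (47.4), Tfpi (43.4), F3 (27.6), Vwf (20.4), Entpd1 (10.8), Tfpi2 (7.76), F8 (0.490) and Serpind1 (0.0327). The first places and that of F3 came from control 2: in controls 1 and 3 Procr (212 and 217) stood above Thbd (66.6 and 80.5), and F3 (7.38 and 11.2) below Vwf (17.4 and 15.7) and Entpd1 (11.7 and 17.9). Only Procr and Pros1, Tfpi2 and F8, and F8 and Serpind1 were neighbours whose libraries did not overlap. In the knockouts the order was Thbd (157), Pros1 (108), Tfpi (106.5), Procr (57.6), F3 (54.8), Entpd1 (6.19), Tfpi2 (3.13), Vwf (0.945), Serpind1 (0.426) and F8 (0.310). There Pros1 and Tfpi, Procr and F3, and Vwf and Serpind1 overlapped. Vwf lay below Entpd1 and Tfpi2 in every knockout library.

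Most liver-made factors of the cascade were at or near 0 in these cells. Of 15 other clotting factor genes only F5 and Kng1 passed the filter, and neither was called (unadjusted p = 0.334 and 0.317 by edgeR). F5, the cofactor that activated protein C destroys, had 0.896, 12.4 and 1.21 CPM in controls 1 to 3 and 7.14 to 13.7 CPM in knockouts, so control 2 lay among the knockouts. Without control 2 its log2 fold change was 3.23 (adjusted p = 3.49e-04 by edgeR). Of 9 other anticoagulant and antiplatelet genes 4 were tested, and 0 rose and 2 fell, whereas without control 2 the counts were 2 and 2. In this and the following lists, the counts are to be read against the 24.7% of all genes called (13.1% higher, 11.7% lower), and against 50.3% without control 2. Nos3, whose product nitric oxide restrains platelets, fell from 137.5 ± 29.6 to 12.95 ± 4.27 CPM (log2 fold change -3.41, adjusted p = 0.00208 by edgeR), and Anxa5, which covers exposed phosphatidylserine, from 662 ± 65.1 to 304.5 ± 12.6 CPM.

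With all libraries, genes that serve Vwf storage and release fell or were not called. Of 15 tested Weibel-Palade genes, 4 fell and 0 rose. That is close to the share over all genes, 24.7% called, 13.1% higher and 11.7% lower. The common direction of these 4 was not tested. Without control 2, 8 fell and 2 rose, beside 24.8% lower and 25.5% higher over all genes. The 4 were Unc13b, Snap23, Vamp3 and Rab27a, which act in vesicle docking and fusion. Unc13b fell from 69.7 ± 22.8 to 20.7 ± 2.55 CPM (log2 fold change -1.75, adjusted p = 0.00906 by edgeR) and Snap23 from 107 ± 14.8 to 68.0 ± 1.68 CPM. Selp, the P-selectin stored beside Vwf, stood at 10.7, 216 and 12.6 CPM in controls and 86.9 to 147 CPM in knockouts, the arrangement seen in F3. It was not called with all libraries (adjusted p = 0.732 by edgeR) and had a log2 fold change of 3.37 without control 2 (adjusted p = 6.50e-05 by edgeR). Furin, Lman1, Mcfd2 and Surf4, which process or export Vwf or F8, had log2 fold changes of -0.12 to 0.30. Furin, which cuts the Vwf propeptide, came nearest to a call at 0.30 (unadjusted p = 0.0190, adjusted p = 0.0665 by edgeR). Without control 2 it was the 1 gene of these 4 that was called (log2 fold change 0.36, adjusted p = 8.19e-04 by edgeR). Vamp3, Rab27a, Selp and Furin are named with their values already known.

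Partners of protein S and of thrombin were measured too. Of 4 genes for the protein S relative Gas6 and the shared receptors, 1 was called (2 higher and 1 lower without control 2): Gas6 rose from 183 ± 61.0 to 533 ± 27.8 CPM (log2 fold change 1.54, adjusted p = 0.0126 by edgeR). The receptor genes Axl and Mertk, also named with values known, divided the libraries much as F3 and Procr did, with Axl at 70.4 and 98.2 CPM in controls 1 and 3, 520.1 CPM in control 2 and 596 to 641 CPM in knockouts, and Mertk at 412 and 447 CPM, 113 CPM and 143 to 155 CPM. Of the 4 protease-activated receptor genes, through which thrombin and other clotting proteases signal, 3 fell, F2r, F2rl2 and F2rl3, and 0 rose (4 and 0 without control 2), with F2rl3 from 14.1 ± 4.64 to 1.06 ± 0.578 CPM (log2 fold change -3.72). F2rl2 had a log2 fold change of -4.79 (adjusted p = 0.0465 by edgeR), with control 2, at 1.63 CPM, near the highest knockout.

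Glycosaminoglycan genes, whose chains activate antithrombin and heparin cofactor II, had 3 of 14 higher, Sdc4, Hs2st1 and Ext2, and 0 lower. That is near the share over all genes, 24.7% called, 13.1% higher and 11.7% lower. The common direction of these 3 was not tested. Without control 2 the counts were 9 higher and 1 lower, beside 25.5% higher and 24.8% lower over all genes. Sdc4, a heparan sulfate proteoglycan core, rose from 166 ± 72.1 to 567 ± 57.2 CPM (log2 fold change 1.77, adjusted p = 0.0127 by edgeR) and the sulfotransferase gene Hs2st1 from 92.1 ± 6.44 to 147 ± 11.4 CPM. Of 10 genes that act beside Entpd1 on extracellular nucleotides and adenosine, 2 rose and 1, the adenosine receptor gene Adora2a, fell (log2 fold change -1.24), again near the share over all genes. Without control 2, 6 rose and 3 fell. Ada, adenosine deaminase, rose from 5.43 ± 0.860 to 10.7 ± 0.667 CPM and the ATP-gated channel gene P2rx4 from 47.8 ± 1.24 to 81.6 ± 7.77 CPM. Of 3 vitamin K cycle and carboxylation genes, on which protein S depends, 1 was called: Vkorc1l1 fell, with a log2 fold change of -0.45.

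Among 8 transcription factor genes known to act on Vwf, F3 or Thbd, 3 rose, Gata2, Fos and Nfkb1, and 0 fell. Without control 2 the counts were 6 and 2. Gata2, a factor of the human VWF promoter, rose from 73.3 ± 19.9 to 228.5 ± 4.43 CPM (log2 fold change 1.64, adjusted p = 0.00569 by edgeR), while Vwf fell. Fos, an AP-1 subunit that acts on F3, rose from 20.6 ± 17.1 to 167 ± 15.8 CPM (log2 fold change 3.01, adjusted p = 0.0178 by edgeR). Klf2 and Klf4, which raise thrombomodulin in human endothelial cells, are named with their values known, and in both the knockouts lay between controls 1 and 3 below and control 2 above. Klf4 had 8.32, 58.5 and 13.4 CPM in controls 1 to 3 and 23.8 to 29.0 CPM in knockouts.

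**Figure D4:**
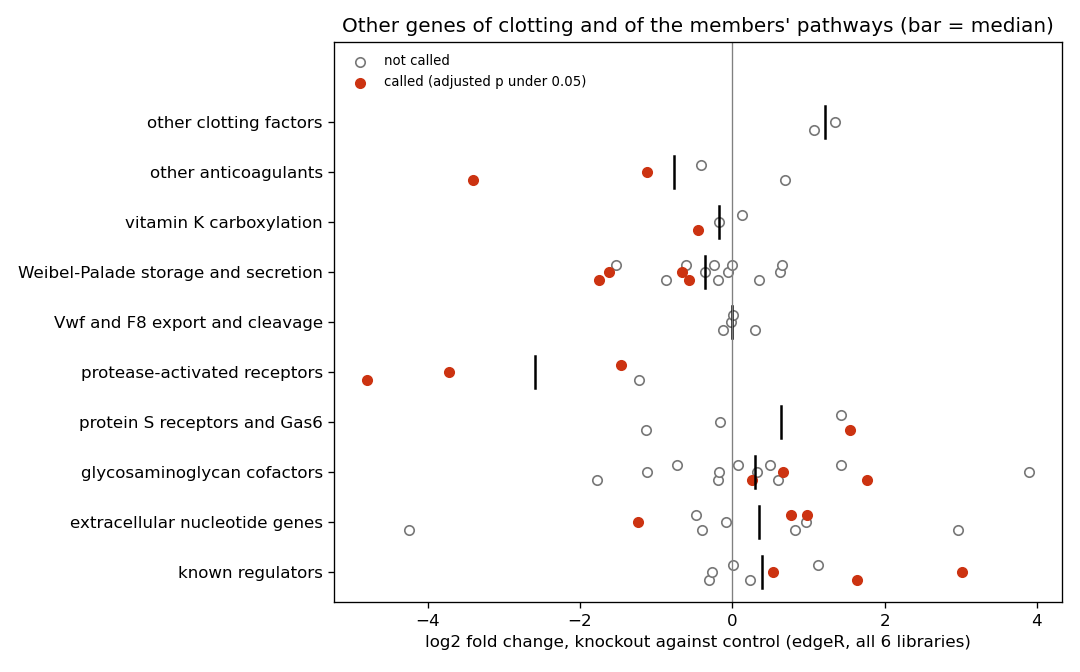
Log2 fold change of knockout against control (x axis, edgeR, all 6 libraries) for the tested genes of each list (rows); filled red points were called, open points were not, and the black bar is the list median. Of the protease-activated receptor genes 3 of 4 were called, all lower. Called too were 4 of 15 Weibel-Palade genes, all lower, and 3 of 14 glycosaminoglycan genes, all higher. Over all genes 24.7% were called, 11.7% lower and 13.1% higher.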

How the data were processed

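Sorted cells gave polyadenylated RNA; per the labels' protocols, each library used either the unstranded TruSeq v2 or the TruSeq Stranded mRNA kit, and which is not given. The authors deposited raw counts per Ensembl gene, used here unchanged. STAR 2.7.6a, FastQC 0.11.5 and the build GRCm38 are named per the submitters' processing notes. How reads were counted, and with which strand setting, is not given in the sources used here. Symbols, positions and exon lengths came from GENCODE M21, which matched 52489 of 52636 identifiers. Exons of the 10 genes overlap those of no other gene, and at most 0.54% of their 50-base transcript sequences (Vwf) occur in other genes.

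The main test was edgeR 4.0.16 (R 4.3.3) with filterByExpr, TMM scaling and glmQLFTest, two-sided, with Benjamini-Hochberg adjustment over all genes. The SE is the log2 fold change over the square root of F. Alternatives were other scalings, DESeq2 1.42.0, limma 3.58.1 voom, other filters and thresholds, a replicate block, a term for sex and each library left out. Balance and likeness used a prior count of 2. Within groups no 2 libraries agreed within sampling noise (chi-square per degree of freedom at least 5.80). This value was 190 and 173 for control 2 against controls 1 and 3. It was 5.80 between controls 1 and 3, and 9.17 to 10.6 among the knockouts.

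The genes and lists were chosen with earlier results of these data known, control 2 included. Besides the 10 genes, up to 2 called genes per list were named, and the 5 nearest to Vwf. Those from the lists had a mean of 5 CPM or more and changed most. Other genes are marked in the text or, as Adora2a, F2r, Ext2, Nfkb1, F5, Pf4 and the single cell type markers, were also named with their values known.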

Additional observations from a re-analysis of the deposited data

How the results depend on the processing

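Vwf, Tfpi, Tfpi2 and Pros1 kept their direction and their call under every alternative run in which they were fitted. Without 1 library at a time, 4 to 10 of the 10 genes were called, 2 to 5 higher and 2 to 5 lower, and 1351 to 7128 genes in all; the highest of these are without control 2. Thbd turned from -0.15 to 1.06 without control 2, to 0.31 with limma voom and to 0.34 with the replicate block (log2), and ranged from -0.54 to 1.06 over single libraries left out; the cause was not tested. The count over all genes was 1844 with the replicate block, against 3437 without it, 1256 at an adjusted p under 0.01 and 982 in a test against a 1.5-fold change. Libraries with the same number deviated from their group means with correlations of -0.17, 0.16 and 0.25, so the numbers were not taken as pairs. The balance of procoagulant against anticoagulant genes, -1.47, turned to 0.21 without Vwf. It was -2.86 without F3 and -1.10 without Serpind1, and leaving out 1 library gave -1.73 to -1.04. Of the single-gene values under alternatives, 148 kept direction and side of the threshold, 5 gained a call in the same direction, 3 lost one and 3 turned, of which Thbd without control 2 also gained a call. Serpind1 fell below a filter of 1 CPM in 3 libraries and has no value there. Depth limits Serpind1, with 4 control counts, and F8, with 53 to 137 counts a library.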
